A study of Mus musculus with 18 samples.

Results

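Control epididymal white adipose tissue (eWAT) was compared with control skeletal muscle, gene by gene, in the RNA-seq libraries of the 3 control mice from which both tissues had been sequenced. The comparison took every gene with a mean of at least 0.5 FPKM (fragments per kilobase of exon, scaled to the size of the library) over the 6 libraries, which left 12607 of the 21899 genes in the table. It used 6 of the 18 libraries of the series, whose purpose was to find what a high-salt diet (HSD) does to the transcriptome of liver, fat and muscle. The control (CON) mice were wild-type male C57BL/6 animals of 18 weeks on a normal diet, with no transgene and no agent given, so tissue was the only factor that differed between the groups. The labels give WAT and muscle, and the study's methods name the depots as epididymal fat and quadriceps. The library names carry the numbers of the mice, CON16, CON71 and CON72, in both tissues, and the values of 3 libraries are given below in that order. HSD mice of the same strain and age, after 12 weeks on the diet, served only to repeat the comparison.

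White adipose tissue and skeletal muscle both descend largely from mesoderm and both answer insulin by taking up glucose, but they are built for opposite tasks. A white adipocyte holds a single lipid droplet, makes triglyceride from glucose and circulating fatty acids, releases it again under adrenergic control, and secretes hormones such as adiponectin and leptin. A muscle fibre is a multinucleate cell filled with sarcomeres, in which myosin thick filaments pull on actin thin filaments when calcium leaves the sarcoplasmic reticulum. It refills its ATP from phosphocreatine, glycogen and mitochondria. Mouse quadriceps consists mainly of fast glycolytic fibres with myosin heavy chain IIb, the product of Myh4.

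The labels were first checked with 4 defining markers. Adipoq, which encodes adiponectin, was at 2129, 1974 and 2041 FPKM in eWAT and 6.94, 16.4 and 7.25 FPKM in muscle. Plin1, the perilipin that coats the adipocyte's lipid droplet, was at 501, 561 and 584 FPKM in eWAT and 2.73, 6.56 and 2.38 FPKM in muscle. The lowest eWAT library stood 120.01 times above the highest muscle library for Adipoq and 76.4 times for Plin1. Myh4 was at 0.643, 0.0110 and 0 FPKM in eWAT and 9954, 7434 and 8507 FPKM in muscle. Ckm, the muscle creatine kinase, was at 0.407, 0.0680 and 0 FPKM in eWAT and 4389, 4328 and 4516 FPKM in muscle. Every library carried the markers of its label.

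The libraries held 15155784 to 16637489 fragments in eWAT and 11185317 to 13251235 in muscle. Replicates correlated at 0.980 to 0.984 in eWAT and 0.987 to 0.989 in muscle (Pearson's r of log2 values across the 12607 genes, which are not independent), and libraries of different tissues at 0.566 to 0.590. Some libraries carried more transcript of another cell type than their replicates. The 10 adipocyte markers summed to 65.6, 108.9 and 68.1 FPKM in the muscle libraries, which is 0.797, 1.32 and 0.827% of their mean sum in eWAT, and 9 of the 10 were highest in CON71 muscle. None of the 10 was at 0 in any muscle library. The 10 myofibre markers summed to 17.4, 9.16 and 8.02 FPKM in eWAT, at most 0.0304% of their sum in muscle, and 8 of the 10 were highest in CON16 eWAT. Transcripts of red blood cells summed to 5667, 243 and 744 FPKM in eWAT and 965, 124 and 224 FPKM in muscle, so mouse CON16 was highest in both tissues. Without CON71 muscle the log2 fold change of Lep, defined below, was 8.43 in place of 7.96 and that of Adipoq 8.07 in place of 7.69, and without CON16 eWAT that of Myh4 was −14.05 in place of −13.66. The part of these admixtures in the gene values below was not tested, and the folds given for adipocyte genes are those of the whole tissues.

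The tissues differed at most genes. At an adjusted p under 0.05 (limma, Benjamini-Hochberg) and a fold change of at least 2, 7167 of the 12607 genes (56.8%) were called, 6095 (48.3%) higher in eWAT and 1072 (8.5%) higher in muscle. All eWAT libraries lay above all muscle libraries at 9131 genes (72.4%), the reverse held at 2096 (16.6%), and the libraries overlapped at 1380. The difference in direction depended on the scale. FPKM divides by all fragments of a library, and muscle spends those on few genes: 82 to 95 genes held 50% of the fragments of a muscle library, against 725 to 768 genes in eWAT. Over all genes tested, the median of the log2 fold changes, eWAT over muscle, was 0.96 in the deposited values and 0.06 after median-ratio scaling, which equalises the typical gene. After that scaling 5280 genes (41.9%) were called, 2718 (21.6%) higher in eWAT and 2562 (20.3%) higher in muscle. All 1072 genes called higher in muscle and 2718 of those called higher in eWAT kept their call under both scalings, 3377 were higher in eWAT only as deposited, 1490 were higher in muscle only after scaling, and no gene was called in opposite directions. Log2 fold changes below are eWAT over muscle on the deposited log2(FPKM + 0.5) scale, to be read against that median of 0.96, and a call is said to hold under both scalings only where it did. The log2 offset makes them understate the change of low genes.

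**Figure D1:**
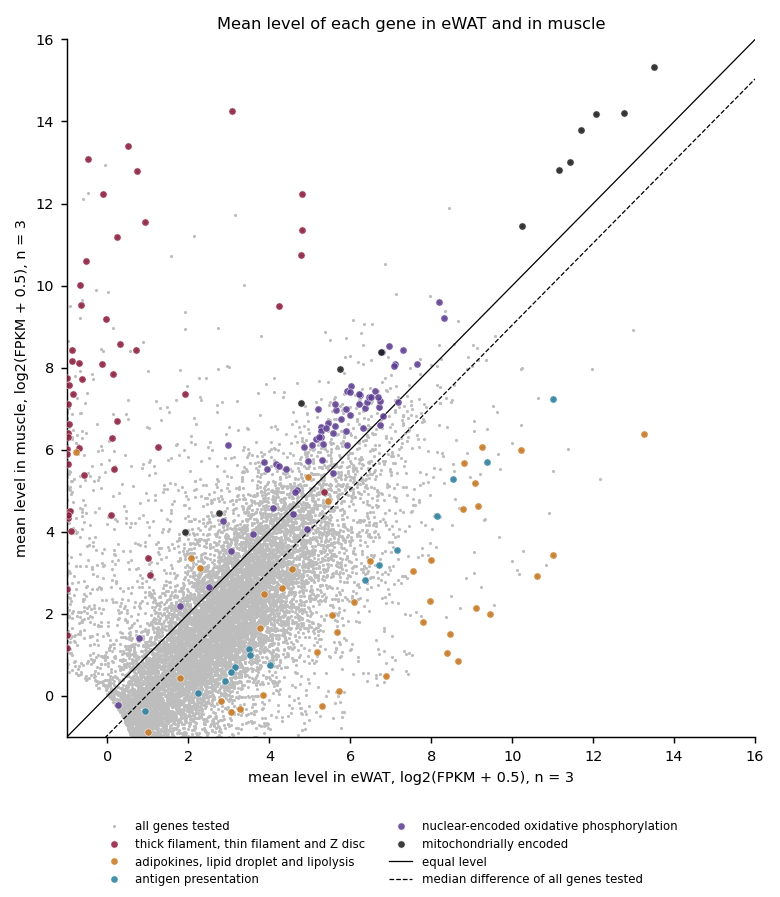
Mean level of each of the 12607 genes in eWAT (horizontal) and muscle (vertical), as log2 of mean FPKM + 0.5 over 3 libraries each, with members of 5 sets of gene lists in colour. The solid line marks equal levels and the dashed line the median difference of 0.96; most genes of the sarcomere lie at the left edge, high in muscle and low in eWAT, most of the adipokine, lipid droplet and lipolysis genes lie below the lines, and most genes of oxidative phosphorylation lie above both.

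The most extreme differences were those towards muscle. A log2 fold change of 3 or more was called at 651 genes towards eWAT and 345 towards muscle. One of 5 or more separated 174 genes towards muscle and 93 towards eWAT, and one of 8 or more was reached by 44 genes towards muscle and by none towards eWAT. Among the 10 largest towards muscle, 7 encode proteins of the sarcomere. Myh4 led, at a log2 fold change of −13.66 ± 0.30 (SE; adjusted p = 5.1e-09). Next came Pvalb, the calcium buffer parvalbumin of fast fibres, at 0.599, 0.380 and 0.404 FPKM in eWAT and 7139.9, 7814 and 8522 FPKM in muscle. Tnnt3, fast troponin T, was at 1.38, 0.750 and 0.608 FPKM in eWAT and 10197, 10405 and 11931 FPKM in muscle. Atp2a1, the calcium pump SERCA1 that ends contraction, was at 0.377, 0.152 and 0.121 FPKM in eWAT and 5818, 4479.9 and 4285 FPKM in muscle. By mean FPKM, muscle exceeded eWAT by 11888-fold at Tnnt3 and by 39614-fold at Myh4. Fast troponin I (Tnni2), the regulatory light chain Mylpf, skeletal actin (Acta1), myosin-binding protein C (Mybpc2) and the Z disc cap of titin (Tcap) completed the 10 with Ckm, and the log2 fold changes ran from −13.66 for Myh4 to −10.95 for Tcap. CON16 eWAT was the highest of the eWAT libraries in all 10, and still the lowest muscle library exceeded it by 1551-fold or more, the smallest ratio being that of Acta1.

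The 10 largest differences towards eWAT were smaller, and all 10 genes are expressed by adipocytes. Lep, the satiety hormone leptin, was at 304, 525 and 378 FPKM in eWAT and 0.945, 2.54 and 0.400 FPKM in muscle, a log2 fold change of 7.96 ± 0.40 (adjusted p = 3.7e-07). Cidec, which fuses lipid droplets into the single droplet of a white adipocyte, was at 1476, 1593 and 1609.8 FPKM in eWAT and 5.77, 10.3 and 5.15 FPKM in muscle. Hp (haptoglobin) followed at 1794, 1831 and 1870.0 FPKM in eWAT and 7.85, 12.1 and 5.79 FPKM in muscle. Adrb3, the adrenergic receptor that drives lipolysis in rodent fat, was at 331, 324 and 355 FPKM in eWAT and 0.961, 3.10 and 0.662 FPKM in muscle. At these 4 genes the lowest eWAT library exceeded the highest muscle library by 104-fold (Adrb3) to 148-fold (Hp), while the muscle libraries differed among themselves by 1.99-fold (Cidec) to 6.36-fold (Lep). Adipoq, Nnat, Retn (resistin), Cdo1, Cyp2e1 and Plin1 were the others, with log2 fold changes from 7.09 to 7.69. CON71 muscle was the highest muscle library at all 10 genes. Lep, Cidec, Adipoq, Adrb3, Retn and Plin1 are also on the list of adipocyte markers, so this partly repeats the observation made for those.

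**Figure D2:**
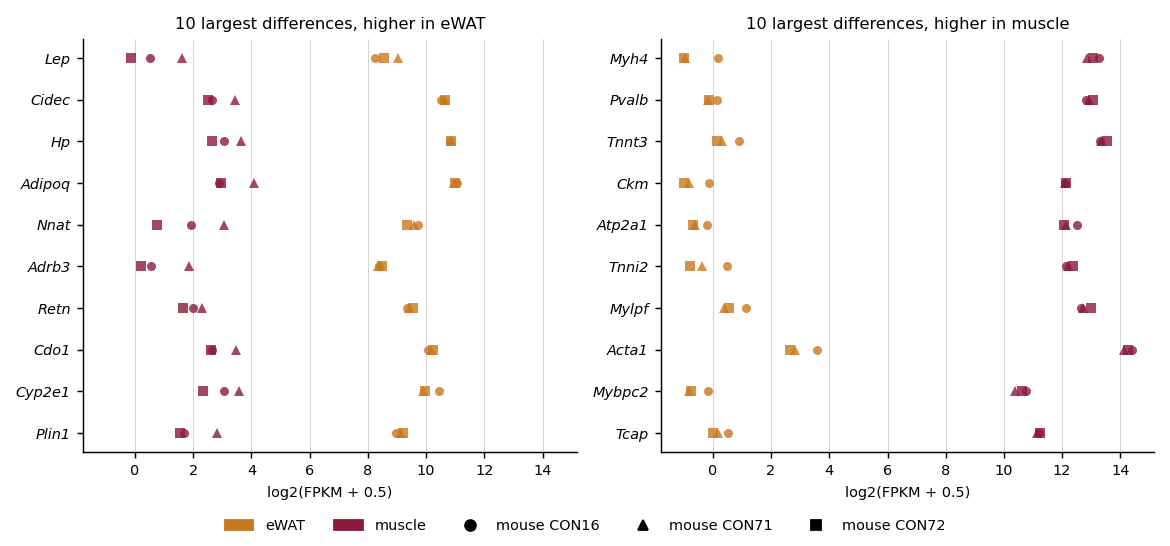
Level of the 10 genes with the largest difference in each direction, as log2(FPKM + 0.5), 1 point per library, coloured by tissue and shaped by mouse. The tissues are far apart at all 20 genes; within eWAT the circle (CON16) is highest at the muscle genes, and within muscle the triangle (CON71) is highest at the adipocyte genes.

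The 120 bases before the RefSeq start site (GRCm38.p6) are given for 3 muscle and 2 adipocyte genes picked by hand, 5′ to 3′ on the strand of the gene. Capitals mark 3 short motifs: TATAA on the given strand, the CArG box (the binding motif of serum response factor) on either strand, and TTGCGCAA (a binding motif of C/EBP factors), a palindrome. No motif overlaps another.
Myh4, chr11:67237692-67237811, plus strand: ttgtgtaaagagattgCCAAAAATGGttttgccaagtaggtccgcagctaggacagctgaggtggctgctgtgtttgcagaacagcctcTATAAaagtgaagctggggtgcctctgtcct
Acta1, chr8:123894776-123894895, minus strand: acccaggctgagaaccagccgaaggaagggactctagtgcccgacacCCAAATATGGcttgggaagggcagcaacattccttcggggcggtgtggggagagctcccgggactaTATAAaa
Ckm, chr7:19410974-19411093, plus strand: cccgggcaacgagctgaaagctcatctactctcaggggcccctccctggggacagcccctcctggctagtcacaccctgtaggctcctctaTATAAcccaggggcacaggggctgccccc
Lep, chr6:29060101-29060220, plus strand: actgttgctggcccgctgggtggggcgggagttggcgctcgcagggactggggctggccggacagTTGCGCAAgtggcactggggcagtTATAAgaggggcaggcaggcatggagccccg
Adipoq, chr16:23146416-23146535, plus strand: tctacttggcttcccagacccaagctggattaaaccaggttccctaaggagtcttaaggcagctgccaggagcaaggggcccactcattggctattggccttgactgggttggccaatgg
Myh4 and Acta1 each held a CArG box, at 104 to 95 and at 73 to 64 bases before the start site, and Myh4, Acta1, Ckm and Lep held TATAA. Lep alone of the 5 held TTGCGCAA, at 55 to 48 bases before its start, and Adipoq held none of the 3. Of all 32851 promoter windows of this length in the RefSeq table, 8.53% held TATAA, 0.749% a CArG box and 0.0822% TTGCGCAA. Among windows of the genes called higher in muscle that had one (835 genes, 1095 windows) the shares were 8.4%, 1.46% and 0%, and among those called higher in eWAT (4783 genes, 6150 windows) 4.73%, 0.667% and 0.146%. These are matches of letters only, and windows of 1 gene can overlap.

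The contractile apparatus was higher in muscle almost as a whole, beside a background of 8.5% of all genes called in that direction. All 17 tested thick filament genes, 14 of 15 thin filament genes and all 19 genes of the Z disc and titin system were called higher in muscle, each under both scalings, with list medians of −7.50, −6.75 and −7.37. With genes that had no fragment in any eWAT library set to their bound, the first median was −8.53 and the others did not move. In these lists 12, 7 and 11 genes averaged under 0.5 FPKM in eWAT. They passed the limit for testing through muscle, which partly sets their direction. Of all 371 tested genes under 0.5 FPKM in eWAT, 329 were called higher in muscle. The fast myosins set the levels. After Myh4, Myh1 (type IIx) was at 865, 697 and 664 FPKM and Myh2 (type IIa) at 262, 329.9 and 259 FPKM in muscle, both under 0.2 FPKM in every eWAT library. Slow myosin Myh7 reached only 13.3, 29.2 and 16.7 FPKM in muscle. CON71 muscle held the most of every slow-fibre gene on the lists: Myh7, Myl2, Myl3, Tnnt1, Tnni1 and Tnnc1 were all highest there, Myl2 for example at 34.9, 87.9 and 68.6 FPKM and Tnnc1 at 40.3, 113 and 81.0 FPKM. Embryonic Myh3 and neonatal Myh8 were lowest in CON71 muscle, at 7.55, 0.669 and 8.50 FPKM and 4.0002, 0.222 and 2.60 FPKM. Slow and developmental forms thus varied more between the mice than Myh4 did, whose highest muscle library exceeded the lowest by 1.34-fold.

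Skeletal actin was the most abundant nuclear transcript of muscle, with Acta1 at 21587, 17694 and 19683 FPKM against 11.4, 6.57 and 5.79 FPKM in eWAT. Acta1 shares most of its coding sequence with the smooth muscle actin Acta2, so its low eWAT value is uncertain. Titin (Ttn), the spring that spans the sarcomere, was at 0.0122, 0.0112 and 0.00922 FPKM in eWAT and 143, 135 and 138 FPKM in muscle. Nebulin (Neb), the ruler of the thin filament, was at 0.103, 0.116 and 0.135 FPKM in eWAT and 299.9, 268 and 259 FPKM in muscle. Tropomyosin Tpm3 was the one thin filament gene not called, at 42.1, 39.2 and 39.5 FPKM in eWAT and 17.2, 44.8 and 29.8 FPKM in muscle, where CON71 muscle overlapped with eWAT. Fast troponin C (Tnnc2) was listed at only 2.55, 1.48 and 1.23 FPKM in muscle, although it forms a complex with Tnnt3 and Tnni2, but 74.0% of its exon bases lie in exons of another gene, so its level is uncertain.

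Calcium handling followed the filaments: 17 of 18 genes of excitation-contraction coupling were called higher in muscle under both scalings (median −7.85). Of the 18, 10 averaged under 0.5 FPKM in eWAT and so passed the limit for testing through muscle. The voltage sensor Cacna1s was at 147, 109.9 and 98.7 FPKM in muscle, with 1 fragment in all eWAT libraries together. The release channel Ryr1 was at 0.103, 0.0786 and 0.102 FPKM in eWAT and 204, 130.002 and 125 FPKM in muscle. The calcium store Casq1 was at 0.767, 0.473 and 0.308 FPKM in eWAT and 922, 859.7 and 970.1 FPKM in muscle. Atp2a2, the calcium pump SERCA2 of slow fibres and of most other cells, was the exception and was not called, at 39.7, 37.2 and 36.8 FPKM in eWAT and 37.4, 60.2 and 43.3 FPKM in muscle. Sarcolipin (Sln), a peptide that restrains the pump, had no fragment in eWAT and 4.35, 4.04 and 3.66 FPKM in muscle, at least 84.8-fold higher.

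Of 18 genes of membrane excitability and the motor endplate, 15 were called higher in muscle, again under both scalings. The sodium channel Scn4a stood at 97.7, 75.0 and 60.1 FPKM and the chloride channel Clcn1, which steadies the resting potential, at 46.4, 44.5 and 40.3 FPKM, against at most 0.0683 FPKM in any eWAT library. The adult epsilon subunit of the acetylcholine receptor (Chrne) was at 10.3, 8.64 and 11.2 FPKM in muscle, whereas the fetal gamma subunit (Chrng) averaged under the 0.5 FPKM limit and was not tested. Among 16 regulators of muscle identity, 13 were called higher in muscle under both scalings. Of these 18 and 16 genes, 11 and 9 averaged under 0.5 FPKM in 1 tissue. They passed the limit for testing through the other, which partly sets their direction. Myf6, the myogenic factor that predominates in adult fibres, had no fragment in eWAT and 67.1, 76.4 and 79.9 FPKM in muscle, at least 1492-fold higher. Myod1 likewise had none in eWAT and was at 13.5, 12.7 and 13.02 FPKM in muscle. Myostatin (Mstn), the secreted brake on muscle growth, was at 0 in eWAT and 37.8, 39.8 and 41.3 FPKM in muscle, at least 1705-fold higher. Mef2c, by contrast, was detected in both, at 3.58, 3.13 and 3.71 FPKM in eWAT and 57.8, 54.5 and 55.9 FPKM in muscle.

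Fuel handling in muscle turned on glycogen and high-energy phosphate. Of 31 genes of glycogen turnover and glycolysis, 21 were called higher in muscle, all under both scalings, and 7 higher in eWAT (median −1.97). Pygm, the muscle glycogen phosphorylase that frees glucose from glycogen, was at 3.78, 3.71 and 4.11 FPKM in eWAT and 2579, 2250.2 and 2309 FPKM in muscle, a log2 fold change of −9.09 ± 0.09 (adjusted p = 1.5e-10). Pfkm, which commits sugar to glycolysis, was at 9.504, 10.5 and 9.68 FPKM in eWAT and 1077, 1008 and 1012 FPKM in muscle. Pgam2 was at 2.60, 3.77 and 1.00 FPKM in eWAT and 1672, 1494 and 1897 FPKM in muscle. Among the other enzymes, Tpi1, Pgk1 and Pkm had log2 fold changes of −2.66, −2.81 and −3.10. All 7 genes higher in eWAT were alternative forms of these enzymes, namely Pygl, Pygb, Hk1, Pfkl, Pfkp, Pgam1 and Eno1. Hk1 was called only as deposited, at a log2 fold change of 0.99 after scaling. Of 12 genes of phosphocreatine and the purine cycle, 7 were called higher in muscle and 4 in eWAT, beside 8.5% and 48.3% of all genes. Mitochondrial creatine kinase Ckmt2 was at 621, 761 and 808 FPKM in muscle and AMP deaminase Ampd1 at 381, 417 and 414 FPKM, each with at most 1 eWAT library above 0. Among the genes higher in eWAT, Ckb and Ampd3 were so under both scalings and Ampd2 as deposited only.

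The lipid cycle was the counterpart in eWAT. Of 12 tested lipid droplet genes 9 were called higher in eWAT (7 under both scalings) and 2 in muscle, beside a background of 48.3% of all genes called higher in eWAT and 21.6% under both scalings. Besides Cidec and Plin1, the droplet coat Plin4 was at 479, 574 and 579.6 FPKM in eWAT and 38.0, 39.8 and 30.3 FPKM in muscle. Caveolin Cav1, the coat of the pits that line the adipocyte surface, was at 1131, 1269 and 1186 FPKM in eWAT and 52.9, 75.6 and 62.6 FPKM in muscle. Plin5 and Fitm1 went the other way. Plin5, which ties droplets to mitochondria, was at 4.09, 3.04 and 3.89 FPKM in eWAT and 9.15, 11.9 and 8.31 FPKM in muscle. Fitm1, which serves droplet budding, was at 0.193, 0 and 0.0619 FPKM in eWAT and 54.6, 54.7 and 73.8 FPKM in muscle. Both were called higher in muscle under both scalings.

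Lipolysis genes were higher in eWAT in 13 of 14 cases, 12 of them under both scalings (median 4.38). Pnpla2, Lipe and Mgll encode the 3 lipases that act in sequence. Pnpla2 was at 657, 606 and 552 FPKM in eWAT and 69.3, 70.4 and 58.7 FPKM in muscle. Lipe was at 208, 231 and 226 FPKM in eWAT and 2.46, 4.48 and 2.08 FPKM in muscle. Mgll was at 233, 276 and 255 FPKM in eWAT and 9.47, 10.2 and 8.58 FPKM in muscle. Lipe, the hormone-sensitive lipase, thus differed by a log2 fold change of 6.04 and Pnpla2 by 3.18. G0s2, the inhibitor of Pnpla2, was at 338, 479.7 and 493 FPKM in eWAT and 16.03, 28.9 and 24.5 FPKM in muscle.

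Genes of fatty acid synthesis were called higher in eWAT in 13 of 15 cases, 12 under both scalings (median 3.21). Fasn, fatty acid synthase, was at 324, 596 and 673 FPKM in eWAT and 4.47, 11.8 and 6.22 FPKM in muscle. Scd1, which puts the double bond into stearate and palmitate, was the most abundant of the list at 4393, 4507 and 4864 FPKM in eWAT and 30.0, 59.0 and 26.8 FPKM in muscle. Fasn, Acly, Thrsp and Elovl6 were all lowest in CON16 and highest in CON72 among the eWAT libraries, Thrsp from 360.2 to 731 FPKM. G6pdx, which supplies NADPH for synthesis, was at 70.6, 76.1 and 69.1 FPKM in eWAT and 1.86, 1.21 and 1.19 FPKM in muscle. Acacb, the carboxylase whose malonyl-CoA restrains fatty acid entry into mitochondria, was not called, at 19.8, 15.1 and 17.2 FPKM in eWAT and 38.6, 33.8 and 26.0 FPKM in muscle.

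Of 15 genes of triglyceride assembly 10 were called higher in eWAT (8 under both scalings) and none in muscle. The last step separated the tissues most among the acyltransferases: Dgat2 was at 566, 837 and 1050.0 FPKM in eWAT and 11.7, 18.9 and 11.5 FPKM in muscle. Agpat2 was at 142, 178 and 209.8 FPKM in eWAT and 3.29, 4.36 and 2.69 FPKM in muscle. Pck1, an enzyme of an early step towards glycerol phosphate in fat, was at 723, 542 and 535 FPKM in eWAT and 4.78, 9.97 and 2.66 FPKM in muscle. Gpd1, which forms glycerol phosphate itself, was not called, at 144, 225 and 255 FPKM in eWAT and 156, 135 and 162 FPKM in muscle, and the groups overlapped. Fatty acid uptake was divided, with 9 of 14 genes called higher in eWAT (7 under both scalings) and 4 in muscle. The lipase Lpl was at 847, 1132 and 1080.2 FPKM in eWAT and 68.1, 82.3 and 64.5 FPKM in muscle. The transporter Cd36 was at 1207, 1196 and 1164 FPKM in eWAT and 87.7, 119 and 83.5 FPKM in muscle. Fabp3, the binding protein of heart and muscle, was at 0.909, 0.160 and 0.730 FPKM in eWAT and 471, 545 and 477 FPKM in muscle, and with Acsl3, Acsl6 and Vldlr it was called higher in muscle under both scalings.

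Adipokine genes were called higher in eWAT in 14 of 15 cases, 13 under both scalings (median 4.14). Cfd, the complement factor adipsin, was the most abundant nuclear transcript of eWAT at 10714, 9353 and 9472 FPKM, against 70.8, 122 and 55.7 FPKM in muscle. Resistin (Retn) was at 646, 689 and 747 FPKM in eWAT and 3.44, 4.38 and 2.60 FPKM in muscle. Rbp4, the retinol carrier, was at 310.3, 386 and 363 FPKM in eWAT and 1.29, 3.96 and 1.80 FPKM in muscle. Nampt was not called, at 32.5, 29.6 and 29.5 FPKM in eWAT and 36.7, 44.4 and 38.3 FPKM in muscle. Of 10 tested genes listed as myokines, 3 (Mstn, Fndc5 and Ostn) were called higher in muscle, beside 8.5% of all genes. Another 6 were higher in eWAT (5 under both scalings), beside 48.3% and 21.6% of all genes. Among these was Igf1, at 33.8, 29.3 and 30.3 FPKM in eWAT and 2.27, 2.24 and 2.04 FPKM in muscle. Sparc was at 772, 891 and 747 FPKM in eWAT and 59.8, 60.1 and 56.2 FPKM in muscle. Among 15 regulators of adipocyte identity, 10 were called higher in eWAT (8 under both scalings) and 2 in muscle. Pparg, the master regulator, was at 102.1, 123 and 118 FPKM in eWAT and 1.05, 2.26 and 1.57 FPKM in muscle. Cebpa was at 317, 326 and 342 FPKM in eWAT and 3.29, 4.07 and 2.58 FPKM in muscle. The exceptions were Ppargc1a and Rxrg, both called higher in muscle under both scalings. Ppargc1a, the coactivator of mitochondrial biogenesis, was at 1.41, 1.15 and 1.32 FPKM in eWAT and 6.86, 8.13 and 5.52 FPKM in muscle. Rxrg was at 8.80, 7.96 and 9.68 FPKM in eWAT and 28.3, 27.3 and 31.6 FPKM in muscle.

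**Figure D3:**
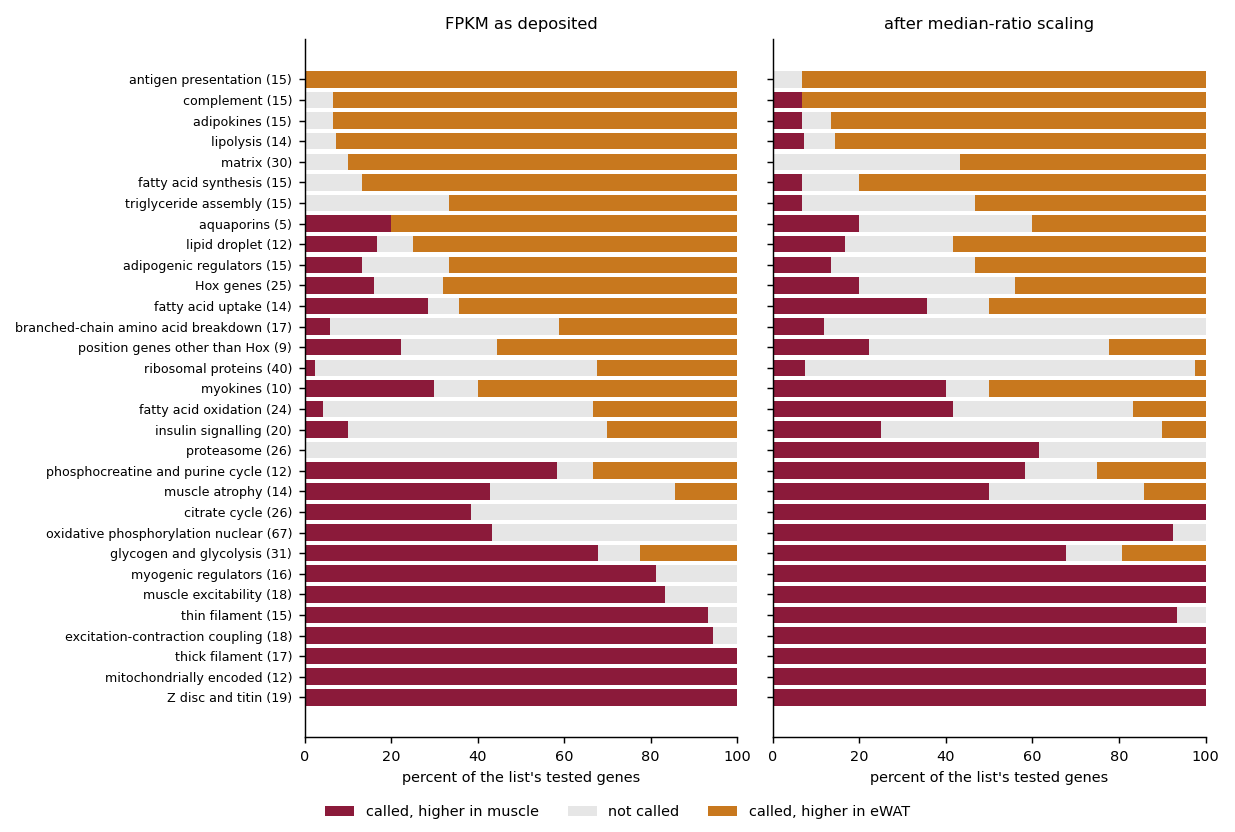
Percent of the tested genes of each list (number in brackets) called higher in muscle, called higher in eWAT or not called, with FPKM as deposited (left) and after median-ratio scaling (right). Contractile and myogenic lists are higher in muscle and lipid, adipokine and immune lists higher in eWAT on both sides, whereas oxidative phosphorylation, the citrate cycle and the proteasome have many more genes called higher in muscle after scaling.

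Many enzymes and carriers exist as a muscle form and another form, and the balance of the forms does not depend on the scaling between libraries. In 26 of 27 such pairs the muscle form made up a larger share of the summed FPKM of both in every muscle library than in every eWAT library. By the means, the leading form differed between the tissues in 21 of the 27. Ckm was 0.336 ± 0.449% of creatine kinase (Ckm and Ckb) in eWAT and 99.9 ± 0.00642% in muscle (SD, n = 3). Pygm was 9.62 ± 0.522% of phosphorylase (with Pygl) in eWAT and 99.97 ± 0.0144% in muscle. Among subunits of cytochrome c oxidase the shift was near complete for Cox6a2 over Cox6a1, 0.0364 ± 0.0340% against 97.2 ± 0.0980%, and partial for Cox7a1 over Cox7a2, 2.08 ± 0.927% against 57.2 ± 3.73%. The binding protein pair moved with them, Fabp3 over Fabp4 being 0.0289 ± 0.0186% in eWAT and 91.9 ± 0.879% in muscle.

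The swap reached the machinery of translation. Rpl3l, a muscle form of ribosomal protein L3, was at 0.190, 0.0803 and 0.0732 FPKM in eWAT and 277, 248.9 and 293 FPKM in muscle, while Rpl3 was at 153, 118 and 124 FPKM in eWAT and 16.2, 14.2 and 14.6 FPKM in muscle. Rpl3l was thus 0.0837 ± 0.0354% of the pair in eWAT and 94.8 ± 0.408% in muscle. Eef1a2, the elongation factor of muscle and neurons, was at 0.0599, 0.253 and 0.0577 FPKM in eWAT and 662, 548 and 578 FPKM in muscle, against 1796, 1499 and 1502 FPKM in eWAT and 160.2, 159 and 136 FPKM in muscle for Eef1a1. Rpl3 and Eef1a1 have processed copies in the genome, with which fragments can be shared, so their levels are less certain. Some pairs kept one leader. Slc2a4, the insulin-responsive glucose transporter GLUT4, was 93.3 ± 0.812% of its pair with Slc2a1 in eWAT and 98.4 ± 0.172% in muscle, and Hk2 was 80.7 ± 1.15% and 97.6 ± 0.489% of hexokinase 1 and 2. The beta subunits of the sodium pump, Atp1b2 over Atp1b1, were the one pair whose libraries overlapped, at 31.5, 47.5 and 63.9% in eWAT and 57.6, 51.7 and 59.7% in muscle. Cpt1b was listed at 1.07, 0.726 and 0.557 FPKM in muscle and its level is uncertain, since 81.4% of its exon bases lie in exons of other genes.

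**Figure D4:**
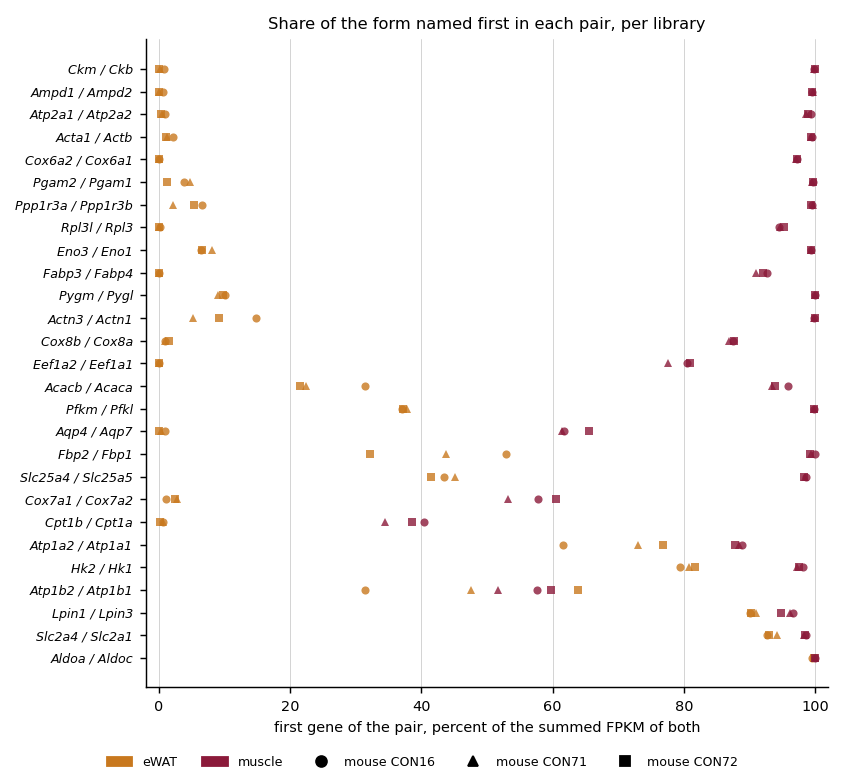
Share of the first-named gene in the summed FPKM of each of 27 pairs, in percent, 1 point per library, coloured by tissue and shaped by mouse. Most pairs run from near 0% in eWAT to near 100% in muscle; hexokinase, aldolase, lipin, GLUT4 and the sodium pump alpha subunit keep the same leading form in both tissues.

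Calls of nuclear genes for mitochondrial proteins changed between the deposited and the median-ratio scale, while those of mitochondrial DNA did not. All 12 tested proteins encoded by mitochondrial DNA were called higher in muscle under both scalings (median −1.77), mt-Co1 for example at 11451, 11662 and 11574 FPKM in eWAT and 34879, 48902 and 40201 FPKM in muscle. Under quantile normalization, a further scaling, the calls of mt-Co1, mt-Cytb, mt-Nd1, mt-Nd2, mt-Nd4 and mt-Nd5 were lost. Those of mt-Co1 and mt-Cytb were also lost without the filter on low FPKM and in a fit of all 18 libraries. Mitochondrial transcripts took 3.99, 4.34 and 4.33% of all fragments in eWAT and 12.3, 16.5 and 14.5% in muscle. Of 67 nuclear genes of oxidative phosphorylation 29 were called higher in muscle as deposited and 62 after median-ratio scaling, beside 8.5% and 20.3% of all genes. None of the 67 was called higher in eWAT on either scale. The ATP synthase gene Atp5g1 differed most, at 7.66, 7.44 and 7.07 FPKM in eWAT and 61.8, 66.8 and 76.0 FPKM in muscle. Of 26 genes of the citrate cycle 10 were called higher in muscle as deposited and all 26 after scaling, beside the same 8.5% and 20.3% of all genes. Sucla2 had the largest log2 fold change, at 34.1, 36.4 and 35.4 FPKM in eWAT and 132, 151 and 142 FPKM in muscle.

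Genes of fatty acid oxidation went in both directions. Of 24 tested genes of fatty acid oxidation 8 were called higher in eWAT as deposited and 1 in muscle, beside 48.3% and 8.5% of all genes. After scaling 4 were called higher in eWAT and 10 in muscle, beside 21.6% and 20.3% of all genes, and the list median moved from 0.30 to −0.77. Mitochondrial enzymes of the cycle were among those called in muscle after scaling only. Hadhb, of the trifunctional protein, had a log2 fold change of −0.84 as deposited and −1.91 after scaling. Acadl, the long-chain dehydrogenase, had −0.44 and −1.52, and every muscle library lay above every eWAT library at both genes. Under both scalings Cpt1a, the carnitine transferase of liver and fat, was higher in eWAT, at 15.02, 13.8 and 12.95 FPKM in eWAT and 1.58, 1.38 and 0.889 FPKM in muscle. The peroxisomal genes Ehhadh and Acaa1b were so too. Acaa1b was at 26.7, 28.6 and 24.3 FPKM in eWAT and 0.0769, 0.646 and 0.228 FPKM in muscle. Pdk4, the kinase that spares glucose by switching off pyruvate dehydrogenase, was the one gene called higher in muscle, at 17.5, 8.68 and 9.72 FPKM in eWAT and 72.0, 50.5 and 29.7 FPKM in muscle. Etfb was also called higher in eWAT under both scalings but shares 58.3% of its exon bases with other genes.

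Genes for the breakdown of branched-chain amino acids depended on the scale as well. Of 17 genes 7 were called higher in eWAT as deposited, near the share of 48.3% among all genes, and none after scaling. Bckdhb, a subunit of the complex that commits the carbon skeletons, was at 55.7, 60.9 and 63.0 FPKM in eWAT and 14.8, 18.6 and 15.3 FPKM in muscle. Bcat2 was at 52.3, 45.3 and 46.7 FPKM in eWAT and 14.4, 14.3 and 13.8 FPKM in muscle. The kinase that inactivates the complex, Bckdk, was called higher in muscle under both scalings, at 20.2, 19.7 and 19.6 FPKM in eWAT and 43.9, 43.1 and 40.46 FPKM in muscle. In insulin signalling 12 of 20 genes were not called, beside 43.2% of all genes. Pik3r1, the regulatory subunit of PI 3-kinase, was higher in eWAT under both scalings at 45.6, 50.4 and 42.8 FPKM in eWAT and 4.23, 4.65 and 3.61 FPKM in muscle, as was the transcription factor Foxo1 at 13.9, 13.1 and 15.7 FPKM in eWAT and 2.17, 2.03 and 2.22 FPKM in muscle. Slc2a4 and Rab10, a GTPase of GLUT4 traffic, were higher in muscle under both scalings, Slc2a4 at 70.4, 78.8 and 72.1 FPKM in eWAT and 149, 151 and 144 FPKM in muscle. The log2 fold change of Slc2a4, −1.0020, lay close to the 2-fold threshold, and its call was lost without CON16 or CON72 eWAT and without CON16 or CON71 muscle.

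Housekeeping machinery marked where the scales part. Of 40 ribosomal protein genes, 13 were called higher in eWAT and Rpl3l in muscle, but only Rpl3 stayed higher in eWAT under both scalings. Of all genes, 48.3% were called higher in eWAT as deposited and 21.6% under both scalings. None of 26 proteasome genes was called as deposited, and 16 were called higher in muscle after scaling, beside 20.3% of all genes. The 5 genes of at least 50 FPKM in both tissues that differed least were Ndufa2, Cox4i1, Acat1, Phyh and Rplp0, with log2 fold changes from −0.04 to 0.03, as for Cox4i1 at 148, 143 and 139.7 FPKM in eWAT and 132, 139 and 159 FPKM in muscle. After scaling they all turned towards muscle, at −1.05 to −1.12. Of the 5440 genes not called (43.2%), 3868 had a 95% interval within a 2-fold change on the deposited scale, and 1572 had intervals that reached beyond it. Of 14 genes of muscle atrophy 6 were called higher in muscle and 2 in eWAT, all 8 under both scalings. Of all genes, 8.5% and 21.6% were called so under both scalings. Of the 14, 3 averaged under 0.5 FPKM in 1 tissue and so passed the limit for testing through the other. The ubiquitin ligase Trim63, which marks sarcomere proteins for the proteasome, was at 0.132, 0 and 0 FPKM in eWAT and 82.4, 79.9 and 75.8 FPKM in muscle. Fbxo32 (atrogin-1) was at 3.94, 2.09 and 2.73 FPKM in eWAT and 58.0, 67.9 and 49.1 FPKM in muscle. The 2 higher in eWAT were Foxo1 and Ddit4, a stress-induced inhibitor of mTOR, at 39.4, 27.4 and 35.0 FPKM in eWAT and 9.12, 5.58 and 4.38 FPKM in muscle.

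Genes that record body position differed by their place in the Hox clusters. Of 25 tested Hox genes 17 were called higher in eWAT (11 under both scalings) and 4 in muscle (all under both). The 4 were Hoxa9, Hoxa10, Hoxc10 and Hoxc11, from the posterior ends of their clusters. Hoxc10 was at 0.719, 0.449 and 0.630 FPKM in eWAT and 32.7, 24.3 and 28.6 FPKM in muscle, whereas Hoxc8, of the same cluster, was at 46.2, 48.4 and 51.6 FPKM in eWAT and 1.20, 2.03 and 1.61 FPKM in muscle. The direction thus turned within 1 cluster, from a log2 fold change of 4.56 ± 0.14 at Hoxc8 to −4.72 ± 0.14 at Hoxc10. By paralogue group, 16 of 18 genes of groups 1 to 8 were called higher in eWAT (10 under both scalings) and none in muscle. Of 7 genes of groups 9 to 13, 1 was higher in eWAT (Hoxb9) and 4 in muscle, each under both scalings. Of the 25 Hox genes, 9 averaged under 0.5 FPKM in 1 tissue. They passed the limit for testing through the other, which partly sets their direction. Hoxb3 and Hoxd4 share more than 50% of their exon bases with other genes. Of 9 tested position genes outside the Hox clusters 5 were called higher in eWAT (2 under both scalings) and 2 in muscle, shares towards eWAT near those of all genes (48.3% and 21.6%). Of the 9, 6 averaged under 0.5 FPKM in 1 tissue and passed through the other, among them Tbx15, Lbx1, Tcf21 and Gata6. Tbx15, known from fast glycolytic fibres as well as from some fat depots, was at 0.0499, 0.0704 and 0.0321 FPKM in eWAT and 92.4, 76.3 and 97.2 FPKM in muscle. Lbx1, of migrating limb muscle precursors, was at 0.0502, 0.319 and 0.0968 FPKM in eWAT and 25.9, 23.4 and 31.0 FPKM in muscle. Tcf21, a gene of visceral mesenchyme, was at 4.14, 3.12 and 3.79 FPKM in eWAT and at 0 in muscle, at least 105-fold higher in eWAT, and Gata6 was at 4.35, 3.51 and 4.04 FPKM in eWAT and 0.128, 0.0778 and 0.0275 FPKM in muscle.

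**Figure D5:**
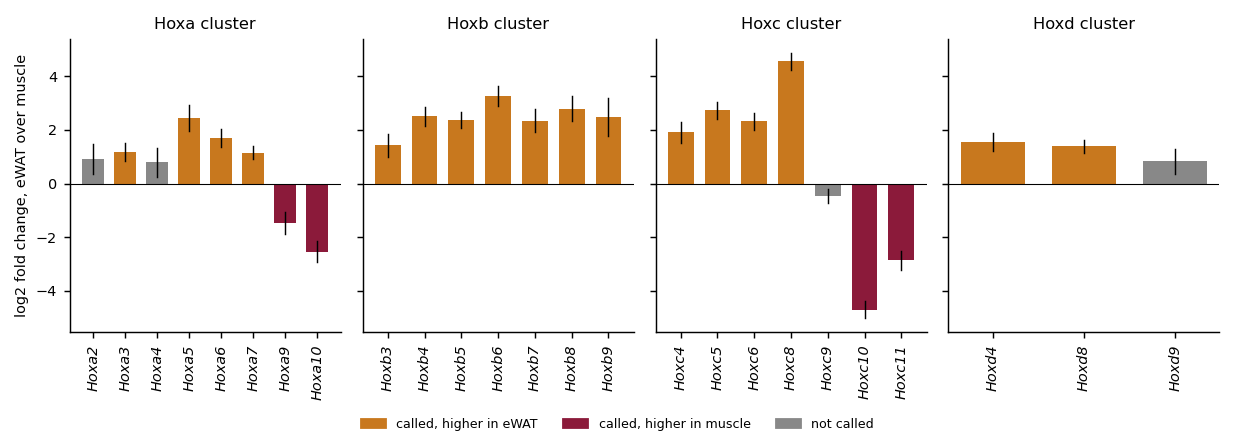
Log2 fold change (eWAT over muscle) of the 25 tested Hox genes by cluster and position, with 95% intervals. Bars above 0 are higher in eWAT; in the Hoxa and Hoxc clusters the bars turn below 0 at the posterior end, to −4.72 for Hoxc10.

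Macrophage markers and most antigen presentation and complement genes were higher in fat under both scalings, whereas most fibroblast and endothelial markers were so as deposited only. In bulk tissue fewer cells of a type and less RNA per cell cannot be told apart. Of all genes, 48.3% were called higher in eWAT as deposited and 21.6% under both scalings. All 10 macrophage markers were called higher in eWAT under both scalings, summing to 622, 414 and 557 FPKM against 73.0, 40.6 and 68.2 FPKM in muscle. Cd68, a macrophage lysosomal protein, was at 32.9, 29.7 and 31.6 FPKM in eWAT and 4.202, 2.42 and 3.49 FPKM in muscle. Antigen presentation moved with them: 15 of 15 genes were called higher in eWAT, 14 under both scalings. Cd74, the chaperone of MHC class II, was at 311, 248 and 288 FPKM in eWAT and 29.0, 17.8 and 14.4 FPKM in muscle. B2m, the light chain of class I, was at 1886, 2211 and 2041 FPKM in eWAT and 121, 191 and 140.1 FPKM in muscle. MHC genes resemble each other, and their fragments may be split among them. Of 15 complement genes 14 were higher in eWAT, all 14 under both scalings, with C4b at 222, 220.0 and 201 FPKM in eWAT and 4.78, 3.54 and 1.76 FPKM in muscle. C1qa, a macrophage product, was at 144, 98.9 and 139 FPKM in eWAT and 12.6, 8.36 and 11.8 FPKM in muscle.

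Matrix genes were called higher in eWAT in 27 of 30 cases, 17 under both scalings, beside 48.3% and 21.6% of all genes. The basement membrane collagens that surround each adipocyte kept their call, Col4a1 at 171, 191 and 197 FPKM in eWAT and 27.3, 23.6 and 22.8 FPKM in muscle. Col15a1 was at 76.1, 117 and 114 FPKM in eWAT and 6.88, 5.43 and 5.63 FPKM in muscle. The fibrillar collagens were divided. Col5a3, of type V, was at 64.9, 101 and 108 FPKM in eWAT and 7.06, 7.13 and 6.70 FPKM in muscle, a log2 fold change of 3.59 that held under both scalings. Col1a1, of type I, was at 34.3, 28.4 and 42.3 FPKM in eWAT and 19.1, 10.99 and 15.9 FPKM in muscle, a log2 fold change of 1.18 as deposited and 0.12 after scaling. Of the fibroblast markers 10 of 10 were called as deposited and 1, Dpp4, under both scalings. Of the endothelial markers 9 of 10 were called as deposited and 2, Pecam1 and Esam, under both, beside the same 48.3% and 21.6% of all genes. The 8 tested markers of mesothelium, the lining of the abdominal cavity, were all higher in eWAT under both scalings. All 8 averaged under 0.5 FPKM in muscle and so passed the limit for testing through eWAT, which partly sets their direction. Upk3b was at 12.9, 7.16 and 16.4 FPKM in eWAT and without a fragment in muscle, at least 524-fold higher.

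Markers of further cell types, resident in these tissues or foreign to them, were measured as well. Of the 12 hepatocyte markers, 11 were tested and all 11 called higher in eWAT. Cyp2e1 made up most of their sum, at 1402, 942 and 990.2 FPKM in eWAT, 210.4% of its mean in the liver libraries, whereas the other 11 were at 0.287 to 1.72% of their liver levels, albumin (Alb) at 108, 167 and 53.9 FPKM in eWAT and 0.322, 23.4 and 8.25 FPKM in muscle. Tendon markers were called higher in muscle in 4 of 6 cases, beside 8.5% of all genes. Of the 6, 3 averaged under 0.5 FPKM in eWAT and so passed the limit for testing through muscle. The sum of the list, 90.4, 49.8 and 30.8 FPKM, was highest in CON16 muscle, with Thbs4 at 40.9, 21.8 and 15.8 FPKM. Of 7 tested Schwann cell markers 1 was called higher in muscle and 1, Pmp22, higher in eWAT, each under both scalings. Among satellite cell markers only Cdh15 (muscle, at least 313-fold) and Vcam1 (eWAT, as deposited) were called, and Pax7 was under the limit for testing. Of the 3 tested markers of brown or beige adipocytes 2 were higher in eWAT and Ppargc1a in muscle, while Ucp1, the uncoupling protein that defines these cells, had no fragment in any of the 6 libraries. Smooth muscle markers gave 4 calls towards eWAT among 7 tested (1 under both scalings) and lymphocyte markers 2 of 3, where 48.3% of all genes were called in that direction. Germ cell markers gave 4 of 6 (3 under both scalings), and of the 14 epididymal and 8 acinar markers 1 each, Adam7 and Cela1, was tested and called higher in eWAT. Adam7, Cela1, the called germ cell markers Prm2, Spata18 and Odf1, and the called lymphocyte markers Cd79a and Cd79b averaged under 0.5 FPKM in muscle. They passed the limit through eWAT, which partly sets their calls. Adam7 and the germ cell gene Odf1 overlapped between the tissues and were called as deposited only. The acinar markers Prss2, Cela2a, Pnlip and Amy2a5 had no fragment in any of the 6 libraries. Among the smooth muscle, lymphocyte, germ cell, epididymal and acinar lists Des, which fibres share, was the single call towards muscle. Of the 5 red blood cell markers 1, Hba-a2, was called higher in eWAT, as deposited only, at 134, 8.41 and 22.0 FPKM in eWAT and 8.49, 1.52 and 3.62 FPKM in muscle, where the tissues overlapped.

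Among the 72 tested genes without a fragment in any muscle library, several that were picked after their values had been seen belong to ciliated or duct epithelium and varied strongly between mice. Foxj1, the regulator of motile cilia, was at 12.1, 6.21 and 1.28 FPKM in eWAT, and Epcam, an epithelial adhesion protein, at 10.1, 6.49 and 1.42 FPKM, each highest in CON16 and lowest in CON72. The 14 markers of the epididymal epithelium summed to 10.9, 5.08 and 1.27 FPKM in the same order of libraries. Protamine Prm2, a sperm protein, was at 2.51, 20.001 and 0.134 FPKM and was highest in CON71 eWAT. The part of such tissue in these values was not tested. Conversely 46 genes had no fragment in any eWAT library, the most abundant being Trim54, a RING protein of the sarcomere, at 148, 131 and 142 FPKM in muscle (at least 3222-fold higher).

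The 10 transcripts of highest FPKM were mt-Co1, Cfd, Car3, mt-Cytb, Scd1, mt-Nd1, Gsn, mt-Nd2, mt-Nd4 and Apoe in eWAT, and mt-Co1, Acta1, mt-Cytb, mt-Nd1, mt-Nd2, Tnnt3, Myh4, mt-Nd4, Pvalb and mt-Nd5 in muscle. Ranked by fragments in each library instead, the first 10 genes took 12.0 to 12.8% of the fragments of an eWAT library and 26.2 to 27.1% of those of a muscle library. Among called genes on none of the lists, the most abundant in eWAT were Car3, Gsn, Apoe, Ifi27l2a and Hp. Car3, carbonic anhydrase 3, was at 7515, 8548 and 8337 FPKM in eWAT and also high in muscle, at 404, 557 and 477 FPKM, and Apoe, the apolipoprotein, was at 2775, 2653 and 2523 FPKM in eWAT and 55.6, 59.9 and 76.5 FPKM in muscle. In muscle they were Mb, Selenow, Tmem38a, Pgm1 and Ndrg2. Mb, the oxygen store myoglobin, was at 0.418, 0.354 and 0.201 FPKM in eWAT and 809, 1113 and 920.0 FPKM in muscle. Tmem38a, a potassium channel of the reticulum, was at 3.76, 2.74 and 3.28 FPKM in eWAT and 656, 652 and 651 FPKM in muscle. Of 5 tested water and glycerol channels 4 were called higher in eWAT (2 under both scalings) and 1 in muscle. The shares of all genes were 48.3%, 21.6% and 8.5%. Of the 5 channels, 3 averaged under 0.5 FPKM in 1 tissue and so passed the limit for testing through the other. Aqp7, through which glycerol leaves the adipocyte, was at 70.9, 65.1 and 65.2 FPKM in eWAT and 4.62, 4.84 and 3.64 FPKM in muscle. Aqp4 was at 0.670, 0.191 and 0 FPKM in eWAT and 7.46, 7.69 and 6.899 FPKM in muscle, each called under both scalings.

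The comparison was repeated in the HSD mice, which share no library with the CON mice. There 7538 genes (59.8%) were called, 6553 (52%) higher in eWAT and 985 (7.81%) higher in muscle, and after median-ratio scaling 5293 (42%), 2628 (20.8%) and 2665 (21.1%). Of the 7167 calls of the CON mice, 6475 (90.3%) were called in the same direction and 64 had the opposite sign, and 85.9% of the HSD calls had been called in the same direction in CON mice. Myh4 had a log2 fold change of −12.17 in HSD mice and Adipoq of 7.09, against −13.66 and 7.69 in CON mice. No gene passed the test of the difference of the tissue effect between the diets by limma (0%), with 1901 at an unadjusted p under 0.05. After median-ratio scaling 7 genes (0.0555%) passed it. One HSD eWAT library, of mouse HS3, carried 20226 FPKM of epididymal epithelium markers against 13.9 and 8.76 FPKM in the other two, and only 2947 FPKM of adipocyte markers. Without it 7529 genes were called in HSD mice, and 129 passed the test of the difference.

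Genes close to the limit of 0.5 FPKM were split by small margins. Hap1 and Mycbpap lay just under it, at means of 0.4993 and 0.4999 FPKM over the 6 libraries, and Tmem144 and Zfp965 just over it, at 0.50005 for both. Of the genes tested, 1752 had a mean under 0.5 FPKM in muscle and 371 in eWAT, which passed through the tissue in which they were high, so their calls (1489 and 329) are partly set by the limit. The labels say nothing of how the replicates were made beyond the mouse numbers, so the p-values measure the spread between these 3 mice.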

How the data were processed

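Total RNA of liver, white adipose tissue and muscle from CON and HSD mice had been depleted of ribosomal RNA and sequenced on Illumina instruments after library preparation with a TruSeq Stranded kit. The deposited values are FPKM per gene and library. According to the study's methods the authors removed adapters (cutadapt), mapped the reads to mm10 (HISAT2) and obtained FPKM from cuffdiff, while the submitters' processing notes list HISAT2, HTSeq 0.9.1, mm9 and mm10 without a role. Whether counting used strand is not given in the sources used here, so genes that overlap on either strand are uncertain, as are near-identical copies. Replicates were not pooled. FPKM multiplied by exon length (GENCODE M21, GRCm38) gave whole fragments, within 0.02, for 97.455% of the 18822 genes above 0 at the full exon length, and for the other 479 at another length, which gave the library totals.

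Groups were taken from the labels. Differences were fitted with limma 3.58.1 (R 4.3.3) on log2(FPKM + 0.5) with a trended prior, without a mouse term, over the 12607 genes averaging 0.5 FPKM or more, and called where the Benjamini-Hochberg adjusted p was under 0.05 and the tissues differed by 2-fold or more. The HSD mice were fitted in the same way, and the difference between the diets as an interaction over 12 libraries. An exact permutation test of 3 against 3 cannot go below p = 0.1. On simulated data for the CON comparison (12607 genes) the fit called 148 of 150 genes changed 4- to 16-fold, 17 of 50 changed 2-fold and 1 unchanged gene. The simulation gave both tissues the same mean profile and a fixed dispersion, apart from 200 changed genes above a minimum of fragments. It holds no difference in composition between the tissues, so it cannot measure false calls that come from the scaling. Alternatives were other pseudocounts, filters, scalings and variance models, voom on the recovered fragments, and leaving out each library. A fold against a tissue without any fragment was set against a floor of 3 fragments over its 3 libraries, which covers counting error only, and no fold is given against 1 to 3 fragments. The mouse numbers in the library names pair the tissues by animal. Deviations from the group means correlated at 0.133, 0.136 and −0.0122 between the tissues of CON16, CON71 and CON72, and a mouse term was an alternative.

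Gene lists, isoform pairs and members were chosen by hand with earlier results of these data known, so no list is tested. Lists are described by their counts and medians beside those of all genes. Named were the 10 largest differences in each direction among called genes without overlap between libraries, the 10 transcripts of highest FPKM in each tissue, the 4 markers, list members called against most of their list and 2 to 4 others of large difference or high FPKM, the isoform pairs, the 5 least different abundant genes and the 5 most abundant called genes in each direction on no list. A few genes beyond that rule were added after their values had been seen: the slow-fibre and developmental myosins, the lipogenic genes lowest in CON16, the epithelial genes, and Hadhb, Acadl and Col5a3. Promoters are from RefSeq (GRCm38.p6), matched by symbol. Liver libraries served only as a reference for hepatocyte markers. Some list members that were measured and counted are not reported here by name.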

Additional observations from a re-analysis of the deposited data

Results flagged for a closer look

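One library outside the comparison of the control mice carried a signal far above the control level. In the eWAT library of HSD mouse HS3 the 14 markers of the epididymal epithelium summed to 20226 FPKM. The control eWAT libraries held 10.9, 5.08 and 1.27 FPKM of the same markers, and the other HSD eWAT libraries 13.9 and 8.76 FPKM. The 10 adipocyte markers summed to 2947 FPKM in that library, against 8013, 8240 and 8447 FPKM in control eWAT.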

How the results depend on the processing

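With FPKM as deposited, 6185 to 7824 genes were called in CON mice over the pseudocounts, and 7102 to 7226 when single libraries were left out. With adjusted p alone, that is without the 2-fold threshold, 11100 genes passed, 2041 of them higher in muscle. The split between the tissues moved with the scaling. Median-ratio scaling gave 2718 genes higher in eWAT and 2562 in muscle in CON mice and 2628 and 2665 in HSD mice, and quantile normalization gave 2615 and 2194 in CON mice. Without the 50 genes of highest FPKM of either tissue, 4686 and 1519 genes were called. Voom on the recovered fragments called 7840 genes. The difference between the diets, at 0 genes in all libraries, came to 7 after median-ratio scaling and to 0 to 129 when single libraries were left out, with 129 without HS3 eWAT, 35 without CON72 eWAT, 17 without HS5 eWAT, 10 without CON16 eWAT and at most 3 without any other. The cause was not tested.

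The replicate block, which fits the mouse as a term, gave 7179 calls in CON mice, 7536 in HSD mice and 0 for the difference between the diets. All 7167 calls without it were also called with it, and it changed no call of a named gene. Of 174 named genes that were called, 150 kept their call in all 21 alternatives in which they were tested and 24 lost it in at least 1, 11 of these only under another scaling. None changed sign. Voom did not call Epcam, Foxj1, Hba-a2, Myh3, Myh8 and Prm2, and single libraries ended the calls of Slc2a4, Hk2, Prm2, Hba-a2, Selenow and Col1a1.

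Named genes near equality changed sign. After median-ratio scaling the log2 fold change was −1.07 for Acat1, Cox4i1 and Ndufa2, −1.05 for Phyh, −0.66 for Gpd1 and −0.57 for Tpm3. Quantile normalization gave −0.32 for Acat1, −0.12 for Cox4i1, −0.17 for Ndufa2 and −0.13 for Phyh. Leaving out mitochondrially encoded genes gave −0.15, −0.16, −0.16 and −0.13 for these 4, and leaving out the 50 most abundant genes of either tissue −0.45, −0.45, −0.45 and −0.43, with −0.037 for Gpd1. Array weights gave −0.019 for Ndufa2. Leaving out single libraries gave −0.017 to 0.057 for Acat1, −0.051 to 0.084 for Cox4i1, −0.090 to 0.162 for Ndufa2, −0.019 to 0.083 for Phyh and −0.151 to 0.049 for Rplp0. Low genes are limited by depth: 1 fragment of a 1 kb transcript was worth 0.060 to 0.089 FPKM.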
